A study of Mus musculus with 6 samples.

Results

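The 10 genes named here belong to the circadian clock and were described in macrophages of young and aged Day 3 wounds. They are Clock, Per1, Per2, Per3, Cry1, Cry2, Nr1d1, Nr1d2, Dbp and Tef, and they were taken as the rows of the deposited count table whose gene symbol equals one of these names. All 10 were among the 15168 genes of the table, and 9 of them were among the 11878 genes with enough counts to be tested, the exception being Per3. The macrophages were live F4/80+ CD64+ cells, also gated on CD45 and CD11b, sorted from the digested dorsal skin of female C57BL/6J wild-type mice, 3 days after 2 full-thickness wounds of 10 mm had been made on each back. There were 3 young samples (12 weeks old) and 3 aged samples (24 months old). Their titles carry the set letters A, B and C, each letter given to a young and an aged sample. Wounding, digestion and sorting were shared by both ages. Animals were housed in Singapore or in Manchester, and which site held which sample is not given in the sources used here. The sources used here also do not give the hour of collection or whether a sample was 1 mouse or several. A difference in hour and a difference with age therefore cannot be told apart in these samples. The p-values set the difference between ages against the spread of the samples within an age, which may be technical.

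The clock of mammalian cells is a loop of transcription that turns over about once a day. CLOCK and BMAL1 bind E-box sequences and switch on the Per, Cry, Nr1d1, Nr1d2, Dbp and Tef genes. PER and CRY proteins then hold CLOCK and BMAL1 back, REV-ERB proteins (from Nr1d1 and Nr1d2) repress genes with ROR elements such as Arntl (which encodes BMAL1), Nfil3 and Cry1, and DBP and TEF activate genes with D-boxes. In mouse tissues the E-box genes and the ROR element genes peak at opposite phases of the day, and macrophages are among the cells with a strong clock of their own.

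The promoters of Cry1, Per1, Tef and Per3 hold letters that match motifs of clock factors. The windows below are RefSeq promoter sequence of mouse build GRCm38.p6 (mm10), up to 250 bases before an annotated start, written 5′ to 3′ on the strand of the gene, with the few exon bases of the same gene taken off in those shown. Capitals mark the E-box CACGTG, the related E prime box (CACGTT or its complement AACGTG) and the D-box TTATGTAA. Cry1 and Per1 are shown for their E-box letters, Tef because it encodes a D-box factor and has E-box letters itself, and Per3 for its D-box pair. The Cry1 window is chr10:85185065-85185304 (minus strand) and lies directly before the gene. The Per1 window is chr11:69098699-69098947 (plus strand) and lies inside the span of a longer Per1 transcript. The Tef window is chr15:81811164-81811413 (plus strand), before a second start inside the gene, and the Per3 window is chr4:151044666-151044915 (minus strand), directly before the gene.
Cry1: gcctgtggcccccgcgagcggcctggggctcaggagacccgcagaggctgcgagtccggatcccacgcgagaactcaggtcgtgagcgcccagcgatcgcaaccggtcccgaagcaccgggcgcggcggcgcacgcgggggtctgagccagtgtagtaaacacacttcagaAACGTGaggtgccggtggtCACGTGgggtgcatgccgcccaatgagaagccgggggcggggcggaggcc
Per1: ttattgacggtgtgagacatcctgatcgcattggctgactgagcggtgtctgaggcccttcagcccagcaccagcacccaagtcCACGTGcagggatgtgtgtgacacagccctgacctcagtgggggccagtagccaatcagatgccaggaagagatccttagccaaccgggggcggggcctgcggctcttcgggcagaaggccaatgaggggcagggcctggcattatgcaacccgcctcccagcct
Tef: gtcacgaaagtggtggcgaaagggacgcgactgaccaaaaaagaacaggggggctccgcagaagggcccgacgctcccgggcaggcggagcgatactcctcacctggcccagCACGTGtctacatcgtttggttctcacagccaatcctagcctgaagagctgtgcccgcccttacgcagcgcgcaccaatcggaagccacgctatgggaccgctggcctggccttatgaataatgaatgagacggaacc
Per3: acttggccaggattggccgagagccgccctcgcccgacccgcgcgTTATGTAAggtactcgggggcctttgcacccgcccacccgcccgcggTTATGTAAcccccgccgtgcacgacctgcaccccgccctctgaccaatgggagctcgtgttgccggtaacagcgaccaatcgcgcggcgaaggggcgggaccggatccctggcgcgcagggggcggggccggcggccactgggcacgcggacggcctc

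The E-box stood at -60 in the Cry1 window, -166 in the Per1 window and -138 in the Tef window, counted from the annotated start. Over both strands it was present in 4 of the 13 windows of these genes (2 of them of Tef, so 3 of the 9 genes with an entry), and in 6.02% of all 32851 promoters of the same length. An E prime box was found in 3 of the 13 windows, those of Cry1 (-79), Cry2 (-166) and Nr1d1 (-28), against 3.85% of all promoters. The D-box TTATGTAA was present in 1 of the 13 windows, that of Per3, at -205 and -158, against 0.819% of all promoters, and its relaxed form TTANNTAA, which also counts the D-box, for Per3 and for Tef against 5.43%. The Tef match (-174) lies in another Tef window, chr15:81802423-81802672, which is wholly exon of Tef and is not shown. The ROR element cores TAGGTCA and TGGGTCA, found in 2.23% and 3.24% of all promoters, were in no window of these genes. A match is only a match of letters, and a missing match says only that the letters are not in this window. Per2 had no entry.

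Of the 9 tested clock genes 1 passed the test between ages, Cry1, which was higher in aged macrophages. No tested member passed as lower in the edgeR quasi-likelihood test (adjusted p under 0.05), in DESeq2 or in limma-voom. With the set letter as a replicate block edgeR also called Dbp, as lower. At an unadjusted p under 0.05, which 34.5% of all tested genes met, there were Cry1 on the higher side and Dbp on the lower side. In the same edgeR test 17.7% of all 11878 genes passed, 9.73% as higher and 7.97% as lower in aged samples. With upper-quartile scaling the counts of all genes higher and lower were 925 and 1195 in place of 1156 and 947, and Cry1 was again the one member called. Positive log2 fold changes were found for 4 members and negative ones for 5, with a median of -0.41 against -0.02 over all tested genes. When each sample was left out, the median of the members ran from -0.57 (without young C) to -0.06 (without aged A). In bulk RNA, fewer cells of a type and less RNA per cell cannot be told apart, so each value below is a level in the sorted sample as a whole.

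**Figure D1:**
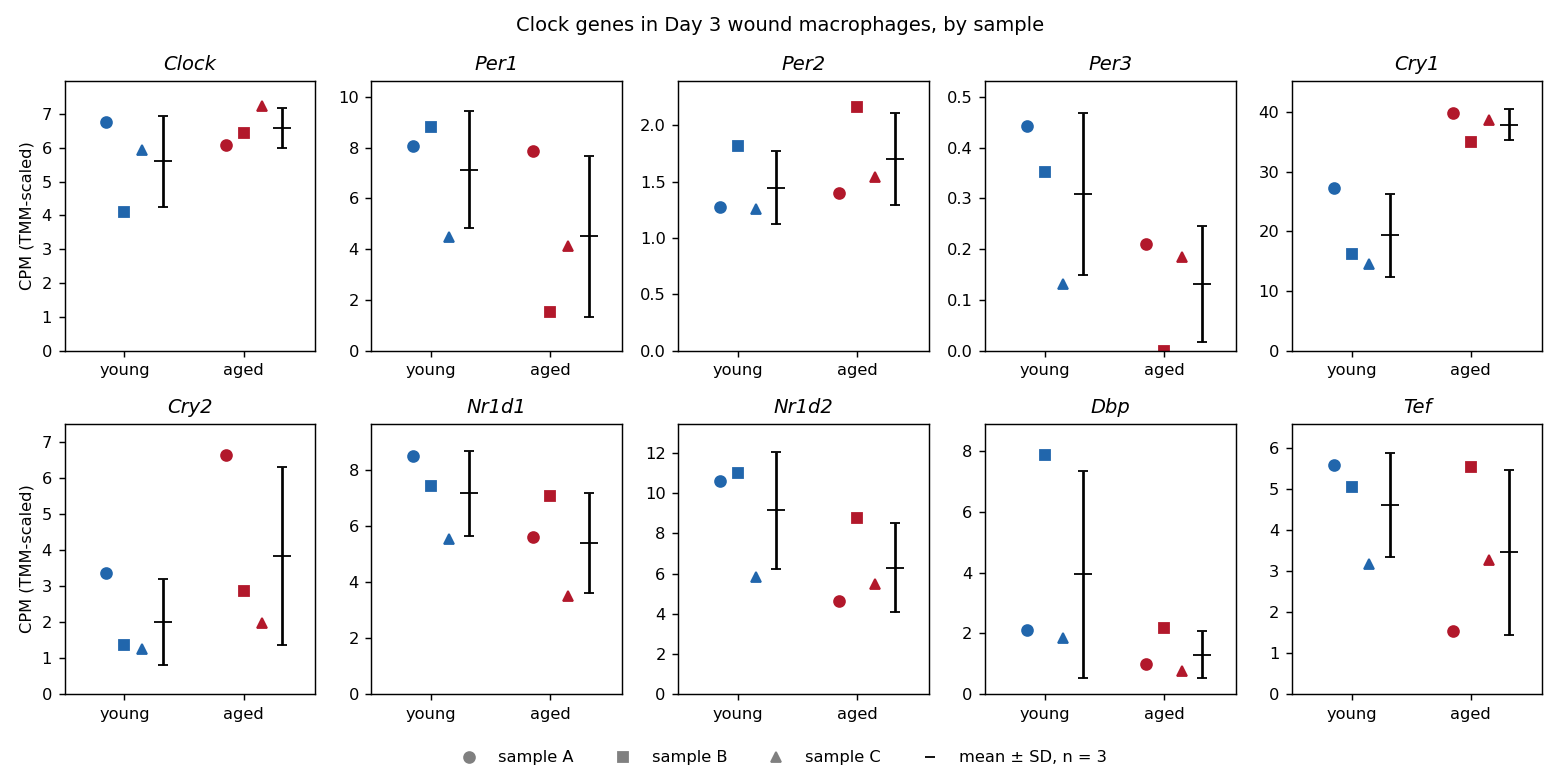
Level of the 10 clock genes in each sample (y axes, CPM scaled by TMM, each gene with its own axis from 0), with young samples in blue, aged samples in red, the letter of the sample as the symbol, and bars for the mean ± SD of 3 samples. Cry1 is the gene whose aged samples (35.0 to 39.9 CPM) all lie above its young samples (14.5 to 27.3 CPM), and the groups overlap for the other 9.

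Clock (chr5:76209868-76304792, minus strand) encodes the partner of BMAL1 in the activating pair. Its level was 6.75, 4.11 and 5.94 CPM (counts scaled to library size, by TMM) in young samples A, B and C and 6.09, 6.43 and 7.23 CPM in aged samples A, B and C. Young B stood lowest, and the other young samples lay within or beside the aged range, so the groups overlapped. Young macrophages averaged 5.60 ± 1.35 CPM (SD, n = 3) and aged macrophages 6.58 ± 0.581 CPM, a log2 fold change of 0.23 (95% interval -0.34 to 0.81, edgeR adjusted p = 0.559). That fold change was 0.06 without young B and 0.40 without young A.

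Per1 (chr11:69095217-69109960, plus strand), a repressor that is also induced rapidly by light and glucocorticoids, was at 8.08, 8.80 and 4.49 CPM in young A, B and C. In aged A, B and C it was at 7.85, 1.53 and 4.14 CPM. Aged A was close to the upper young samples and aged B was the lowest of all 6, at 24 counts. The log2 fold change was -0.67 (95% interval -1.74 to 0.40, edgeR adjusted p = 0.354), moving to -0.25 on leaving out aged B and to -1.33 on leaving out aged A.

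Per2 (chr1:91415982-91459324, minus strand), the second period repressor, was at 1.27, 1.82 and 1.26 CPM in the young samples and 1.40, 2.17 and 1.54 CPM in the aged ones. The B sample was highest in each age, and the groups overlapped. The counts behind these levels ran from 19 to 34, and the log2 fold change of 0.23 had a 95% interval of -0.65 to 1.11 (edgeR adjusted p = 0.710). That fold change was 0.03 without aged B and 0.43 without young B. Per3 (chr4:151003652-151044665, minus strand), the third period gene, held 8, 6 and 2 counts in young and 3, 0 and 3 counts in aged samples. It was too scarce to test, and the 0 counts of aged B allow a level of up to 0.191 CPM (3 counts of that library, counting error only).

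Cry1 (chr10:85131700-85185064, minus strand) encodes the cryptochrome that holds the activating pair most strongly in check. It was at 27.3, 16.3 and 14.5 CPM in young A, B and C and at 39.9, 35.0 and 38.7 CPM in aged A, B and C. Every aged sample exceeded every young sample, the nearest being aged B and young A, where 38.2% of all tested genes did not overlap between ages and 19.2% were apart with aged higher. The mean rose from 19.3 ± 6.97 CPM to 37.9 ± 2.59 CPM (n = 3 each), 1.96-fold. The log2 fold change was 0.97 (SE 0.24, 95% interval 0.44 to 1.49, edgeR adjusted p = 0.0238). The exact permutation test over samples gave p = 0.1 (two-sided), the smallest that 3 against 3 allow. Cry1 was not among the 8.79% of all genes that passed with a change over 2-fold.

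The call of Cry1 depended on the samples in the fit, and its direction did not. Leaving out each sample in turn gave log2 fold changes of 0.80 to 1.30. The edgeR adjusted p was 0.00244 without young A and 0.0347 without aged B, but it was 0.0874 without young B, 0.106 without young C, 0.0516 without aged A and 0.0758 without aged C. DESeq2 gave an adjusted p of 0.00256.

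Cry2 (chr2:92403646-92434043, minus strand), the other cryptochrome, was at 3.37, 1.35 and 1.26 CPM in the young samples and 6.66, 2.87 and 1.98 CPM in the aged ones. Sample A stood highest in each age, and young A lay above aged B and aged C. The log2 fold change was 0.93, close to that of Cry1, but with a 95% interval of -0.25 to 2.10 (edgeR adjusted p = 0.241). Leaving out a sample moved it from 0.27 (without aged A) to 1.55 (without young A). Of the Cry2 exons, 295 bases overlap a transcript of the opposite strand that the count table does not list.

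Nr1d1 (chr11:98767932-98775333, minus strand) encodes REV-ERB alpha, a nuclear receptor that represses Arntl. It was at 8.52, 7.45 and 5.55 CPM in the young samples and 5.60, 7.07 and 3.52 CPM in the aged ones. Aged C was the lowest of all 6 and young A the highest, with the other samples mixed between them. The log2 fold change was -0.41 (95% interval -1.08 to 0.26, edgeR adjusted p = 0.362), moving to -0.17 on leaving out aged C and to -0.65 on leaving out aged B. Its exons share 263 bases with Thra on the opposite strand, and the kit does not mark strand, so reads there cannot be told apart. Thra itself averaged 1.51 ± 0.594 CPM in the young and 1.49 ± 0.204 CPM in the aged samples.

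Nr1d2 (chr14:18204054-18239127, minus strand), which encodes REV-ERB beta, was at 10.6, 11.0 and 5.81 CPM in the young samples and 4.62, 8.79 and 5.50 CPM in the aged ones. Young A and young B lay above every aged sample, and young C lay among the aged samples. The log2 fold change was -0.54 (95% interval -1.25 to 0.18, edgeR adjusted p = 0.262), moving to -0.36 on leaving out aged A and to -0.84 on leaving out aged B.

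Dbp (chr7:45705088-45710203, plus strand), a D-box activator with one of the widest daily swings in mouse tissues, was at 2.10, 7.86 and 1.85 CPM in the young samples and 0.981, 2.17 and 0.741 CPM in the aged ones. Young B stood far above the other 5, and aged B lay above young A and young C, so the groups overlapped. The log2 fold change of -1.60 (95% interval -2.97 to -0.23) had an unadjusted p of 0.0265 and an edgeR adjusted p of 0.0957. Without young B it was -0.60 with an adjusted p of 0.501, so that 1 sample decided its size. With the set letter as a replicate block edgeR called Dbp as lower (log2 fold change -1.46, adjusted p = 0.0317). Whether the set letters pair the samples is not given in the sources used here. The Dbp counts in aged samples were 14.3, 34.1 and 11.7, and 539 exon bases are shared with Sphk2 on the opposite strand.

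Tef (chr15:81802421-81826863, plus strand), the related D-box activator, was at 5.59, 5.05 and 3.17 CPM in the young samples and 1.54, 5.54 and 3.27 CPM in the aged ones. Aged A was the lowest of all, while aged B was as high as the upper young samples. The log2 fold change was -0.41 (95% interval -1.36 to 0.54, edgeR adjusted p = 0.528), moving to -0.06 on leaving out aged A and to -0.92 on leaving out aged B. Of its exons, 193 bases overlap an antisense transcript that the count table does not list.

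**Figure D2:**
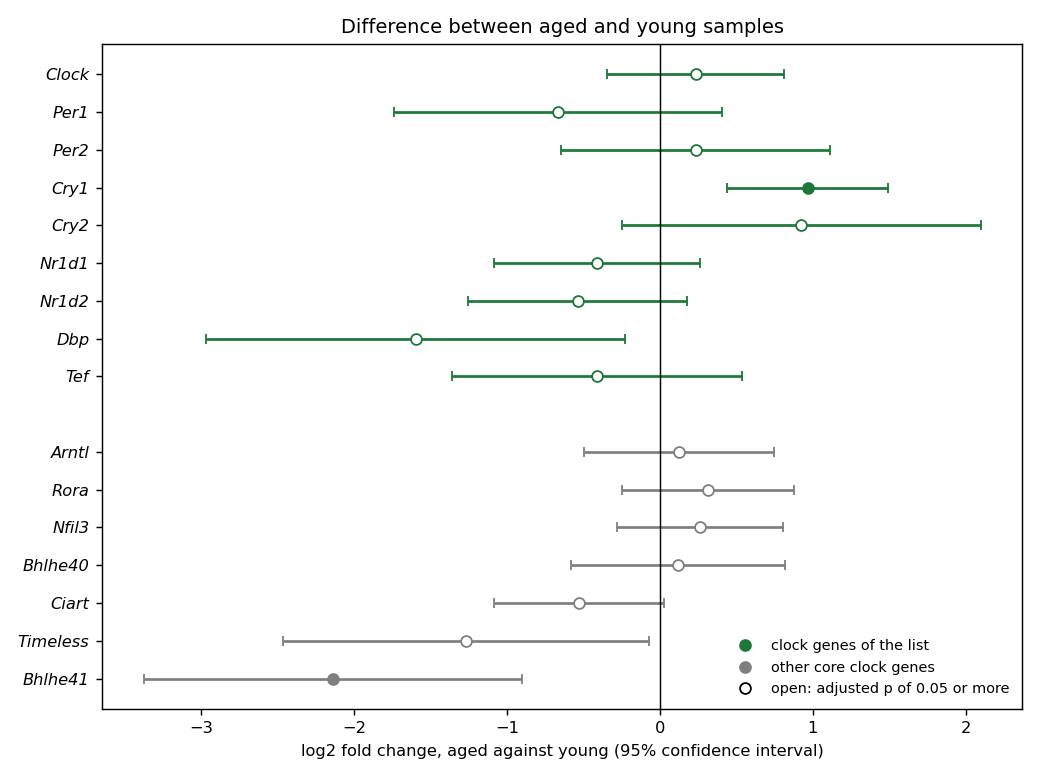
Log2 fold change of aged against young macrophages (x axis) for the 9 tested clock genes (green) and 7 other core clock genes (grey), with bars for the 95% interval and filled points for an adjusted p under 0.05. Cry1 (0.97) and Bhlhe41 (-2.14) are the filled points, and the interval of Dbp (-2.97 to -0.23) is the widest among the green genes.

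The samples of an age varied together across several members. Young C was the lowest young sample for 8 of the 9 tested genes, Clock being the exception. Among aged samples, aged B was the highest for Per2, Nr1d1, Nr1d2, Dbp and Tef and the lowest for Per1 and Cry1. The 10 genes together held 665 counts in young C and 1339 in young A, with the other 4 samples between 1069 and 1123. None of the 9 tested members changed sign in the 13 other fits, which took another scaling, filter, tool or block or left out a sample.

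**Figure D3:**
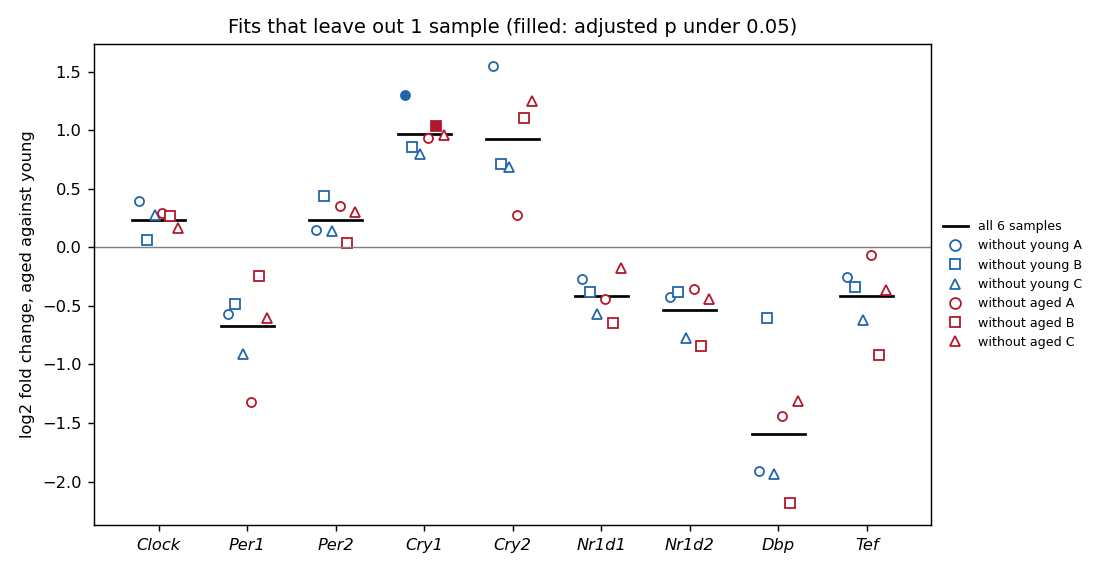
Log2 fold change of each tested clock gene (y axis) in the 6 fits that left out 1 sample (symbol by the sample left out), with a line for the fit on all 6 samples and filled symbols for an adjusted p under 0.05. Cry1 runs from 0.80 to 1.30 and is filled in 2 fits, and Dbp moves to -0.60 without young B.

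Between genes, levels were compared per kilobase of exon. Cry1 was the most abundant member per kilobase in both ages, at 5.79 ± 2.09 CPM per kb in young and 11.3 ± 0.776 CPM per kb in aged samples. Nr1d1 followed at 2.33 ± 0.489 and 1.75 ± 0.580 CPM per kb, and Nr1d2 at 1.69 ± 0.536 and 1.17 ± 0.406 CPM per kb. The order in young samples then ran Dbp, Per1, Tef, Clock, Cry2, Per2 and Per3, and in aged samples Per1, Cry2, Clock, Tef, Dbp, Per2 and Per3. Dbp thus stood 4th in young and 8th in aged samples, with the young mean of 1.32 ± 1.14 CPM per kb carried by young B. The ranges of neighbours in this order overlapped except between Cry1 and Nr1d1 and between Per2 and Per3 in both ages, and between Per1 and Tef in young samples. Per2 lay at 0.247 ± 0.0547 (young) and 0.291 ± 0.0694 CPM per kb (aged), and Per3 at 0.0321 ± 0.0166 and 0.0137 ± 0.0120.

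The arms of the clock that peak in opposite phases were then set side by side in each sample, as a look at time of day. The E-box arm was the mean log2 CPM of Nr1d1, Nr1d2, Dbp, Tef, Per1, Per2, Ciart and Bhlhe41, and the ROR element arm that of Arntl, Clock, Nfil3 and Cry1. Cry2 (log2 fold change 0.93) and Bhlhe40 (0.12), which are E-box genes too, were not in that list, and Cry1, which has both kinds of element in mouse cells, was placed with the ROR element genes. The E-box arm was at 2.30, 2.53 and 1.96 in young A, B and C and at 1.45, 1.74 and 1.39 in aged A, B and C. The ROR element arm was at 4.63, 4.52 and 4.29 in young and 4.76, 4.80 and 5.13 in aged samples. In these lists the ages did not overlap in either arm, the aged minus young means being -0.73 and 0.42 on the log2 scale, while 1 of the 8 E-box genes (Bhlhe41) and 1 of the 4 ROR element genes (Cry1) passed the edgeR test, beside 17.7% of all tested genes. The E-box arm minus the ROR element arm was -2.33, -2.00 and -2.32 in young and -3.30, -3.06 and -3.74 in aged samples. The mean difference was -2.22 ± 0.192 in the young and -3.37 ± 0.343 in the aged samples, a shift of -1.15 on the log2 scale. These are descriptions with no test, since the genes of each arm were chosen with earlier results of these data known.

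**Figure D4:**
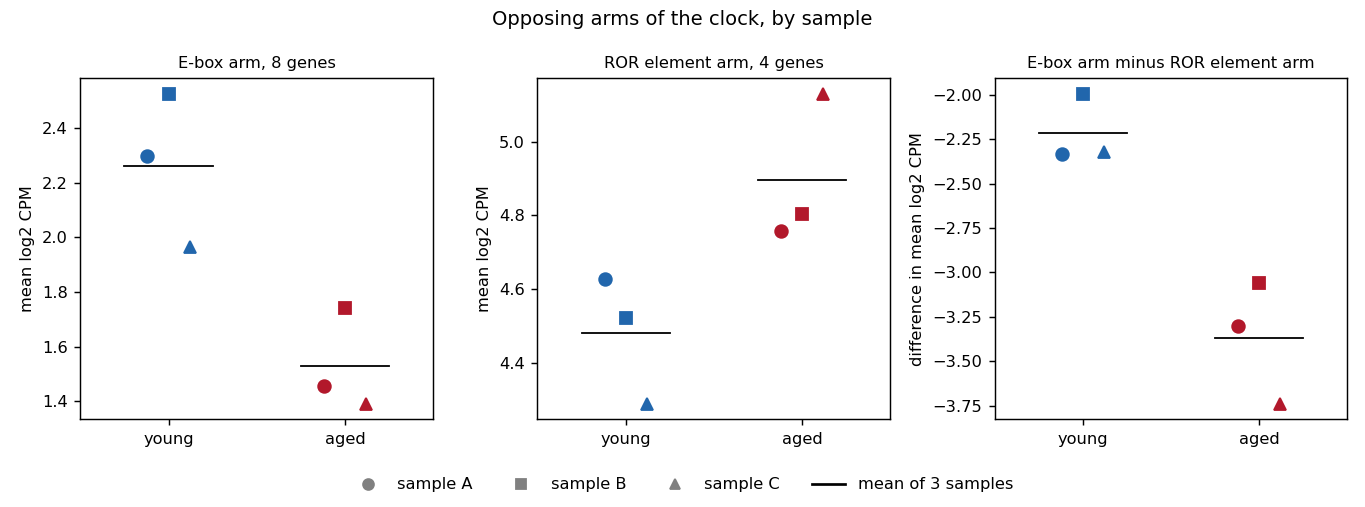
Mean log2 CPM of the E-box arm (8 genes, left), of the ROR element arm (4 genes, middle) and their difference (right) in each sample, with lines for the mean of 3 samples and y axes that do not start at 0. The difference lies between -2.33 and -2.00 in young samples and between -3.74 and -3.06 in aged samples.

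The size of the gap and the separation of each arm between ages depended on which genes were put in the arms. Without Cry1 the ROR element arm was at 4.58, 4.68 and 4.43 in the young samples and 4.57, 4.69 and 5.08 in the aged ones, which overlap, and its aged minus young mean was 0.22. The gap did not overlap in that version (young -2.47 to -2.16, aged -3.69 to -2.95). Nor did it with Cry2 and Bhlhe40 in the E-box arm (young -1.82 to -1.61, aged -3.07 to -2.38). The aged minus young difference of the gap was -0.92 with Cry2 and Bhlhe40 added to the E-box arm. With Cry1 moved to that arm as well it was -0.58, the E-box arm overlapped between ages (2.60 to 3.07 in the young samples and 2.35 to 2.64 in the aged ones), and the gap ran from -1.83 to -1.51 in young and -2.73 to -1.93 in aged samples. The aged minus young difference was -0.95 without Cry1, -1.0 without Bhlhe41 and -1.07 without Dbp, and from -0.97 to -1.30 when each sample was left out. From the members alone (6 and 2 genes), the gap was -1.49, -0.41 and -1.49 in young and -2.44, -1.99 and -2.62 in aged samples, where the ages again did not overlap. The E-box arm of the members did overlap, at 2.29, 2.65 and 1.74 in the young samples against 1.54, 1.94 and 1.46 in the aged ones. Young B, the sample with high Dbp and low Clock, had the gap closest to 0 in that version.

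Ratios of 9 single genes to Arntl were also taken, and the ages did not overlap in 2 of them, those of Dbp and Cry1. By level in place of ratio, 38.2% of all tested genes did not overlap between ages. The log2 ratio of Dbp to Arntl averaged -1.0 ± 0.820 in young samples against -2.47 ± 0.874 in aged ones, and every aged value (-3.38 to -1.64) lay below every young value (-1.63 to -0.07), though aged B and young A differed only by -1.64 against -1.63. The log2 ratio of Nr1d2 to Arntl averaged 0.45 ± 0.184 in young samples against -0.22 ± 0.506 in aged ones, and that of Nr1d1 to Arntl was 0.13 ± 0.250 and -0.44 ± 0.753, with overlap in both. The log2 ratio of Per2 to Arntl was -2.08 ± 0.240 and -2.00 ± 0.403, with overlap. The log2 ratio of Per1 to Arntl ran from -0.08 to 0.25 in young and from -2.11 to 0.46 in aged samples, and those of Tef, Ciart and Clock overlapped as well. The log2 ratio of Cry1 to Arntl was 1.51 ± 0.520 in young and 2.40 ± 0.351 in aged samples, apart by the gap between 2.00 and 2.11.

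Of 13 names listed as other core clock genes, 7 were in the table and tested, and 1 of them passed, as lower. Among all tested genes 17.7% passed, 7.97% as lower. Bhlhe41, which encodes the repressor DEC2, was at 1.16, 0.997 and 1.65 CPM in the young samples and 0.210, 0.446 and 0.185 CPM in the aged ones. The young samples all lay above the aged ones, as for 19% of all tested genes, at 3 to 7 counts in the aged samples. The log2 fold change was -2.14 (SE 0.56, edgeR adjusted p = 0.0287). It was called in 2 of the 6 fits that left out a sample, with adjusted p between 0.0379 and 0.134. Arntl was at 6.75, 8.27 and 4.76 CPM in the young samples and 5.67, 7.01 and 8.89 CPM in the aged ones, overlapping, with a log2 fold change of 0.12 (95% interval -0.50 to 0.75, edgeR adjusted p = 0.785).

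Ciart, which encodes the repressor CHRONO, was at 19.5, 17.8 and 21.5 CPM in the young samples and 15.5, 8.53 and 16.6 CPM in the aged ones. Its groups did not overlap, as for 19% of all tested genes on the lower side, and the log2 fold change was -0.53 (edgeR adjusted p = 0.161). Rora, an activator at ROR elements, had a log2 fold change of 0.32 (edgeR adjusted p = 0.406). Nfil3, the repressor that opposes DBP at D-boxes, had 0.26 (adjusted p = 0.480) and Bhlhe40, the partner of Bhlhe41, 0.12 (adjusted p = 0.822), each with overlapping samples. Timeless, whose role in the mammalian clock is less settled, had -1.27 with an edgeR adjusted p of 0.124. Its samples did not overlap, at 2.38 to 3.43 CPM in young and 0.280 to 1.97 CPM in aged ones. Of the 7 other core clock genes 3 did not overlap with aged lower and 0 with aged higher, beside 19% and 19.2% of all tested genes.

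Proteins that modify or assist the clock were read from the same fit, in which 9.73% of all genes were higher and 7.97% lower. Of 18 tested kinases, phosphatases and ubiquitin ligases of the clock, 2 rose and 0 fell. At an unadjusted p under 0.05, which 34.5% of all tested genes met in either direction, there were 7 higher and 2 lower. Over the 18 genes the log2 fold change was positive for 13 and negative for 5. Usp7, a deubiquitinase that acts on CRY1 among many targets, rose from 13.4 ± 2.57 to 23.8 ± 2.7 CPM (log2 fold change 0.83, SE 0.20, edgeR adjusted p = 0.0222). Its young and aged samples did not overlap, as for Cry1 and for 19.2% of all tested genes on the higher side.

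Of 16 tested partners of CLOCK, BMAL1 and PER, 2 rose and 1 fell. Crebbp, an acetyltransferase coactivator, had a log2 fold change of 0.71 (edgeR adjusted p = 0.0351) and Sirt1, a deacetylase, 0.71 (adjusted p = 0.0266). Parp1, which modifies CLOCK among many other proteins, fell by 1.14 on the log2 scale (adjusted p = 0.0218). Of 6 clock-controlled output genes, Por, the electron donor of cytochrome P450 enzymes, rose from 370.3 ± 118 to 749.2 ± 93.6 CPM (log2 fold change 1.02, edgeR adjusted p = 0.0200), and 0 fell, with 2 lower at an unadjusted p under 0.05. Over the 4 lists together 7 of 46 genes passed (15.2%, beside 17.7% of all genes), 5 of them higher, and the median log2 fold change was 0.23. Each of the genes named as passed was called in 2 of the 6 fits that left out a sample, except Por, which was called in 3. The number passed was 10 without young A, 4 without aged A, 6 without aged B and 0 without young B, young C or aged C.

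Since Per1 also answers to glucocorticoids, 10 tested genes that these hormones induce were read in the same fit. None passed in edgeR without a block, beside 17.7% of all tested genes. At an unadjusted p under 0.05, which 34.5% of all tested genes met, 1 was higher (Cdkn1a, edgeR adjusted p = 0.0890). DESeq2 called that gene (adjusted p = 0.0375). With the set-letter block edgeR called Sgk1 (adjusted p = 0.0203) and Cdkn1a (0.0434). The median log2 fold change of the list, which includes Per1, was 0.27, against -0.02 over all tested genes.

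Libraries held 15270103 to 17927483 counts, and 1 count was worth 0.0553 to 0.0701 CPM after TMM scaling. Of 8 macrophage markers, all were present in every sample, with a sum of 27966 to 43048 CPM in the young samples and 20174 to 25536 CPM in the aged ones. Lyz2 made up most of these sums, and without it they overlapped, at 3809 to 4205 and 3820 to 4147 CPM. Of these 8, Itgam (CD11b) rose with a log2 fold change of 0.99 (adjusted p = 0.00735) and Adgre1 (F4/80) fell with one of -0.69 (adjusted p = 0.0292), both encoding markers used in the sort. The sort as given used no neutrophil marker. Of 12 tested neutrophil markers 4 rose, with sums of 717 to 1217 CPM in young and 926 to 1583 CPM in aged samples. Among all tested genes 9.73% passed as higher in edgeR. All 3 tested keratinocyte markers rose, with sums over 10 present markers of 3.77 to 5.42 CPM in young, 10.7 and 20.7 CPM in aged C and A, and 219 CPM in aged B, while Krt5, Krt1, Krt17, Krt6a, Krt14 and Epcam were at 0 in some samples. Endothelial markers summed to 10.8 to 11.7 CPM in young and 26.2 to 37.7 CPM in aged samples (1 of 3 tested rose, Pecam1). Without Pecam1 these sums overlapped, at 1.55 to 4.03 and 1.82 to 12.6 CPM, and Cdh5, Tie1 and Plvap were at 0 in some. Fibroblast, T and NK cell and dendritic cell markers had overlapping sums, of 13.4 to 122 CPM (highest in aged B), 8.51 to 14.1 CPM and 17.8 to 96.0 CPM. Of these, 0 of 5, 0 of 4 and 0 of 6 tested were called in edgeR and, at an unadjusted p under 0.05, 0, 1 and 1. Among all tested genes these shares were 17.7% and 34.5%, so lists this short can show little. Without aged B the log2 fold change of Cry1 was 1.03 and that of Dbp was -2.18, and the part of the other markers in the clock values was not tested.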

How the data were processed

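RNA of sorted wound macrophages from 3 young and 3 aged samples was analysed. The authors aligned reads with STAR 2.7.3a to mm10 and in Partek Flow assigned them to Ensembl 102 transcripts, and the deposited values are expected counts per gene without normalisation (30.7% to 34.0% of values in a sample were not whole). Whether counting used strand is not given in the sources used here. A deposited table with normalised values and the authors' own comparison was not used.

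Expected counts were rounded, although the planned design named raw counts, and tested with edgeR 4.0.16 in R 4.3.3 (TMM scaling, filterByExpr by age, quasi-likelihood test, Benjamini-Hochberg adjustment over 11878 genes, no block). CPM were computed on TMM-scaled libraries, with a prior count of 2 for log2 CPM. DESeq2 1.42.0, limma-voom (limma 3.58.1, sample quality weights), other scalings, filters and thresholds, a set-letter block and leaving out each sample were alternatives. The fit was tested on simulated data. Replicates of an age differed beyond sampling noise and were counted separately.

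Members and gene lists were chosen with earlier results of these data known. Named genes are the 10 members, the called genes of the clock lists, other core clock genes and genes overlapping a member. Cdkn1a, Sgk1, Timeless and single marker genes are named in addition, after their values were seen, and 1 called gene is not reported here. Listed gene ends were 1 base past GENCODE's and are given 1-based. Promoters are from RefSeq, with entries for 9 of 10 members. Plots used Python 3.11.15, pandas 2.3.3 and matplotlib 3.10.9.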

Additional observations from a re-analysis of the deposited data

How the results depend on the processing

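None of the 9 tested members changed direction under the 13 alternative fits, while Arntl (-0.06 to 0.42) and Bhlhe40 (-0.38 to 0.41) did among the other core clock genes. The count of members called was 1 under each other scaling, filter and tool. It was 0 when a change over 2-fold was also required and 0 to 1 when each sample was left out. Genes called among all tested numbered 3646 with limma-voom, 1044 with the 2-fold requirement and 218 to 2702 when each sample was left out (218 without young C, 545 without aged C, 765 without young B, 1385 without aged A and 1502 without aged B), against 2103. Of the other clock genes DESeq2 called 11 and limma-voom 14, against 7, and 0 to 10 were called when each sample was left out; the cause was not tested. The aged minus young difference of the arms ran from -0.97 to -1.30 when each sample was left out, was -1.21 with a prior count of 0.5 and -1.02 over genes averaging 5 CPM or more, and -0.58 with Cry1, Cry2 and Bhlhe40 in the E-box arm. That version, the ones without Cry1, Bhlhe41 or Dbp, with Cry2 and Bhlhe40 or with members alone were chosen after seeing the data. Whether the set letters pair the samples is not given in the sources used here. Deviations from the mean of each age correlated at 0.18, -0.02 and 0.11 between samples of the same letter. Between samples of different letters they ran from -0.22 to 0.14, so these correlations cannot decide it. With the set letters as a replicate block edgeR called 2 members, Cry1 and, as lower, Dbp (log2 fold change -1.46, adjusted p = 0.0317). It also called 2114 of all genes, 5 of the other clock genes and, of the glucocorticoid-induced genes, Sgk1 (adjusted p = 0.0203) and Cdkn1a (0.0434). Bhlhe41 (edgeR adjusted p = 0.0509) and Crebbp (0.0504) were not called in that fit. Low counts, 19 to 34 per sample for Per2, 0 to 8 for Per3 and 3 to 7 for Bhlhe41 in aged samples, limit what these libraries can show.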
